A study of Rattus norvegicus with 7 samples.

Results

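The mitochondrial genome models of the rat vomeronasal epithelium were all gene models that the deposited annotation places on the mitochondrial chromosome, 37 of 29630 models in all. They were told apart by length and position: 22 models of at most 100 bases were called tRNA-length, the first 2 longer models along the sequence were called rRNA-length, and the other 13 were called protein-length. These class names describe size and place, because neither the files nor the gene table pair the identifiers with gene names, so that no member is given a gene name here. The numbers and lengths of the models fit the usual content of a mammalian mitochondrial genome, with tRNA-length models of 60 to 75 bases and protein-length models of 204 to 1830 bases.

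The samples were vomeronasal epithelia from 7 male LEW/Crl (Lewis) rats, 8 weeks old, with 1 rat per library. All rats belonged to 1 group, without a treatment, and were flushed of blood before dissection. RNA with polyA tails was selected and read as stranded single-end reads of 100 nucleotides. The libraries held 64085829 to 74924005 counts, so that 1 CPM (counts scaled to the same assigned total in each library) stood for 64.1 to 74.9 counts. Because the tissue was read in bulk, more mitochondria-rich cells and more mitochondrial RNA per cell cannot be told apart. Markers of the vomeronasal cell types could not be looked up, since 0 identifiers matched the gene table.

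Mitochondrial DNA is a small circle that encodes rRNAs and tRNAs of the organelle's own ribosomes and subunits of the respiratory chain complexes and of ATP synthase. Both strands are transcribed into long precursors, in which tRNAs lie between many of the rRNA and protein-coding stretches and mark where the precursor is cut. Most mitochondrial mRNAs of mammals carry short polyA tails and rRNAs carry very short ones, whereas mature tRNAs end in CCA and have no such tail. Most genes lie on the strand read as plus here, and in mammals a single protein-coding gene, for a subunit of respiratory complex I, lies on the other strand with several tRNAs.

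Mitochondrial models together took 2.07% ± 0.222 of all counts (SD, n = 7). The share was 2.16% in rat 1, 1.90% in rat 2, 2.05% in rat 3, 1.83% in rat 4, 1.88% in rat 5, 2.24% in rat 6 and 2.44% in rat 7. Rats 1, 6 and 7 thus stood highest and rats 2, 4 and 5 lowest, a 1.33-fold range. The 95% Wilson intervals were 1.82% to 1.83% in rat 4 and 2.43% to 2.44% in rat 7, so that counting error was small beside the spread between rats; such intervals cover counting error only, and reads carried no molecular identifiers. This share depends on what else fills the library. With the 10 most abundant other models left out of the total, it was 3.77%.

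**Figure D1:**
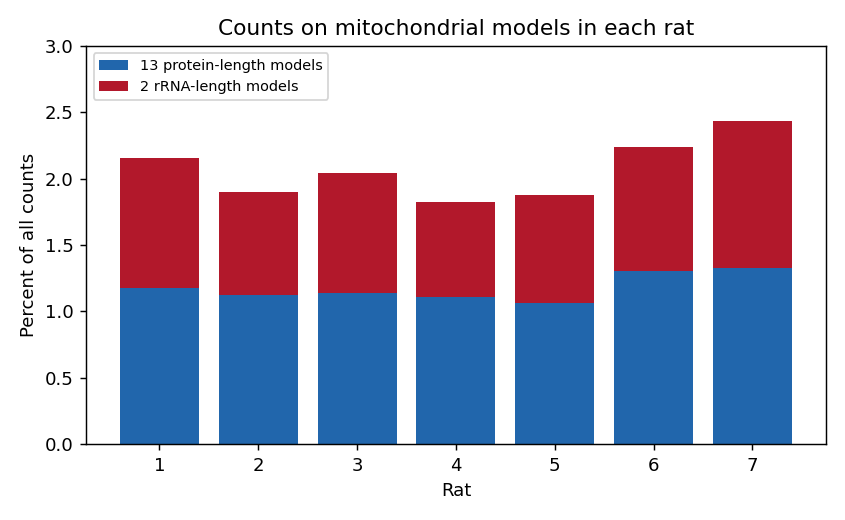
Percent of all counts assigned to mitochondrial models in each rat, with protein-length models (blue) below rRNA-length models (red). The bars reach from 1.83% in rat 4 to 2.44% in rat 7, and tRNA-length models, at 0.00626% of the mitochondrial counts, are too small to draw.

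Nearly all mitochondrial counts fell on the long models. The 13 protein-length models held 57.1% ± 2.36 of them and the 2 rRNA-length models 42.9% ± 2.36 (SD, n = 7). The rRNA-length share had a median of 43.3% and ran from 39.2% in rat 4 to 45.5% in rat 7. The 22 tRNA-length models held 0.00626% ± 0.000692 (SD, n = 7), which was 72 to 108 counts per rat. By strand, the 28 plus-strand models held 99.9% and the 9 minus-strand models 0.107% ± 0.00469 (SD, n = 7). The 4 most abundant models together held 83.5% ± 0.813 of the mitochondrial counts (SD, n = 7).

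All 15 long models were detected, that is, had at least 10 counts in at least 4 of the 7 rats, as were 4 of the 22 tRNA-length models. The 19 detected members were 51.4% of the 37, against 56.3% of all 29630 models. Of the 18 members not detected, 9 were tRNA-length models to which no full read could be assigned (explained with those models). The counting rule held these at 0 counts, so that the shares do not compare how often transcripts were present. Ranked by mean CPM among all models, 2 members were within the first 10, 6 within the first 100 and 12 within the first 1000, while the lowest long model ranked 6110. CPM grows with the length of a model. Ranked by CPM per kilobase of model, 0 long models were within the first 10, 8 within the first 100 and 14 within the first 1000. The lowest on that scale, ENSRNOG00000029042, ranked 1294.

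The rRNA-length models, taken by length and place as those of the organelle's ribosomal RNAs, differed from each other. ENSRNOG00000043866 (MT, positions 1094 to 2664, plus strand, 1571 bases; all positions are those of the deposited annotation on RGSC3.4) had 6359 CPM in its lowest rat, rat 4, a median of 8003 CPM and 9690 CPM in its highest, rat 7. It alone held 37.7% ± 1.89 of the mitochondrial counts (SD, n = 7). ENSRNOG00000030478 (68 to 1025, plus strand, 958 bases) had 805 CPM in rat 4, a median of 1062 CPM and 1398 CPM in rat 7. Its share of the mitochondrial counts was 5.21% ± 0.614 (SD, n = 7). The levels of these models did not overlap between rats: every rat had several times more of the longer one.

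Per length, the longer model had 4982 ± 706 RPKM (CPM per kilobase of model) and the shorter one 1136 ± 243 RPKM (SD, n = 7). The log2 ratio was 2.15 ± 0.13 (SD, n = 7), a 4.44-fold difference, higher in 7 of 7 rats. A two-sided exact sign-flip permutation test over rats gave p = 0.0156, the smallest that 7 rats can give, and the adjusted value over the 3 ratios tested was also 0.0156. The ratio ran from 1.96 in rat 6 to 2.31 in rat 2. The libraries were selected for polyA, and how fully rRNA was captured was not measured.

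The protein-length models covered a range of 104.8-fold in mean RPKM. The highest was ENSRNOG00000034234 (5323 to 6867, plus strand, 1545 bases), with 6076 CPM in rat 5, a median of 6452 CPM and 7402 CPM in rat 7. That model held 32.3% ± 2.06 of the mitochondrial counts (SD, n = 7) and reached 4311 ± 324 RPKM, so that it stood next to the longer rRNA-length model. Its RPKM was below that of ENSRNOG00000043866 in 6 of 7 rats and above it in rat 4, and the ranges of both overlapped. Per read position that could be assigned to a single model (explained with the tRNA-length models), ENSRNOG00000043866 was higher in 7 of 7 rats, by 1.29 ± 0.141 times (SD, n = 7). The RPKM of ENSRNOG00000043866 divided by that of ENSRNOG00000034234 was 1.15 ± 0.127 (SD, n = 7), from 0.958 in rat 4 to 1.30 in rat 1.

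Further along the plus strand came ENSRNOG00000030371 (7006 to 7689, 684 bases), with 1097 CPM in rat 5, a median of 1192 and 1371 CPM in rat 7. ENSRNOG00000030700 (8599 to 9382, 784 bases) had 1396 CPM in rat 5, a median of 1515 and 1766 CPM in rat 7. ENSRNOG00000031979 (7919 to 8599, 681 bases) had 647 CPM in rat 4, a median of 733 and 892 CPM in rat 7. In RPKM these models stood at 1798 ± 143, 1979 ± 196 and 1110 ± 140, in the same order of naming (SD, n = 7). ENSRNOG00000033615 (9451 to 9798, 348 bases) had 267 CPM in rat 5, a median of 281 and 306 CPM in rat 7, and 816 ± 42.2 RPKM. It varied least between rats of all long models.

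The remaining plus-strand protein-length models were lower in RPKM, though not all in CPM. The highest of them, ENSRNOG00000031766, had 400 ± 52.7 RPKM, against 816 ± 42.2 for ENSRNOG00000033615 (SD, n = 7). ENSRNOG00000031766 (14136 to 15278, 1143 bases), the last protein-length model along the sequence, had 385 CPM in rat 4, a median of 451 and 536 CPM in rat 7. ENSRNOG00000030644 (2740 to 3696, 957 bases), which follows the rRNA-length models, had 208 CPM in rat 4, a median of 250 and 313 CPM in rat 7. Its RPKM, at 265 ± 39.7, was far below the 4982 ± 706 of the rRNA-length model upstream of it (SD, n = 7), although both lie on the same strand with a single tRNA-length model between them. ENSRNOG00000031033 (3904 to 4944, 1041 bases) had 102 CPM in rat 4, a median of 121 and 155 CPM in rat 7. The longest member, ENSRNOG00000029971 (11736 to 13565, 1830 bases), had 184 CPM in rat 2, a median of 212 and 247 CPM in rat 6.

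ENSRNOG00000029707 (10160 to 11537, 1378 bases) had 143 CPM in rat 4, a median of 168 and 212 CPM in rat 6, and ENSRNOG00000031053 (9870 to 10166, 297 bases) had 17.6 CPM in rat 4, a median of 19.2 and 26.0 CPM in rat 6. ENSRNOG00000033299 (7758 to 7961, 204 bases), the shortest of the long models, had 24.7 CPM in rat 5, a median of 30.9 and 35.5 CPM in rat 1. Its highest value was thus in a different rat from that of most members: 11 of the 15 long models were highest in rat 7, 3 in rat 6 and 1 in rat 1.

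**Figure D2:**
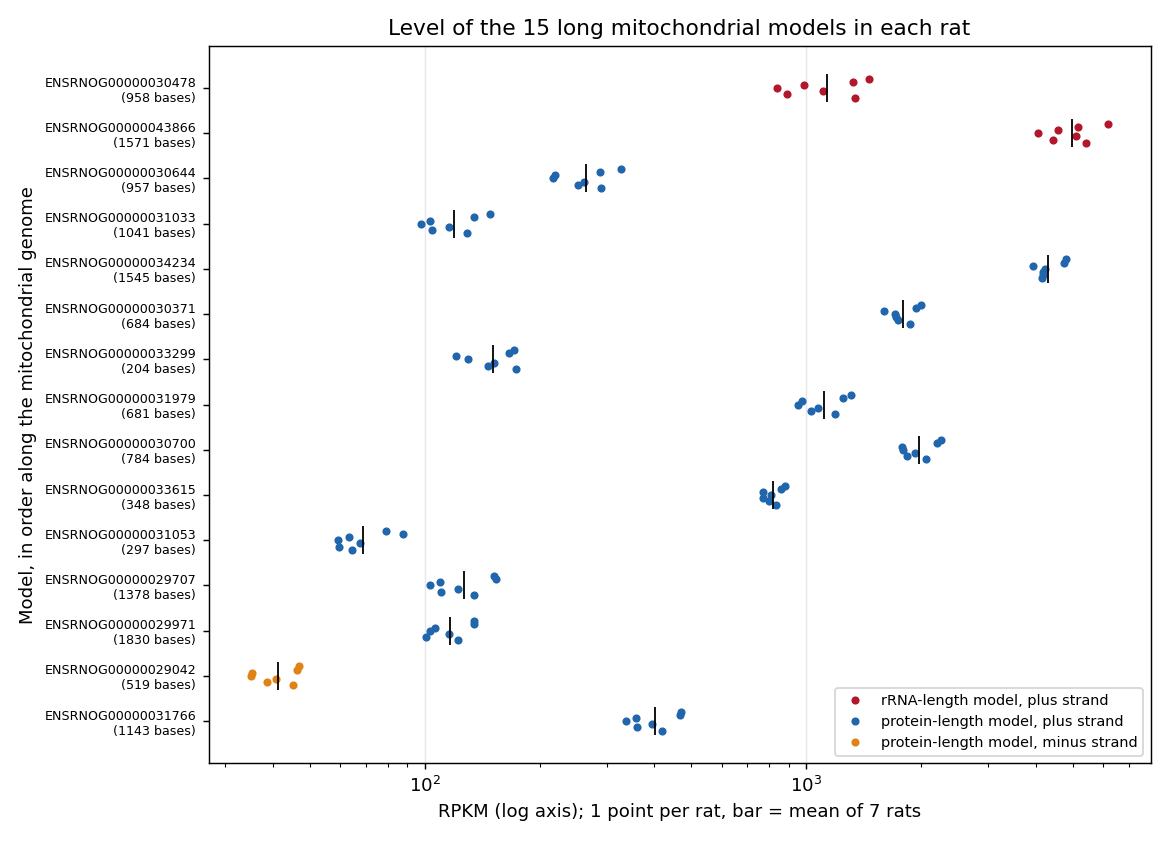
RPKM of the 15 long models in each rat on a log axis, in order along the mitochondrial genome, with the mean of the 7 rats as a bar and the class and strand by colour. Levels run from 41.1 RPKM for the minus-strand model to 4982 RPKM for the longer rRNA-length model, and the points of a model lie close together beside the differences between models.

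Levels did not run evenly along the plus strand. The 6 consecutive protein-length models between positions 5323 and 9798 made up 37.2% of the protein-length bases and held 89.3% ± 0.696 of the protein-length counts (SD, n = 7). Together they had 2476 ± 196 RPKM, against 187 ± 25.9 RPKM for the 6 other plus-strand models (SD, n = 7), a ratio of 12.4 to 15.1 in single rats. This stretch was picked after its values were seen and is given as a description. Inside it the levels were also uneven, from 151 ± 20.5 RPKM for ENSRNOG00000033299 to 4311 ± 324 for ENSRNOG00000034234 (SD, n = 7). Few read positions could be assigned to the former, and per such position these models stood at 0.490 ± 0.0664 and 4.13 ± 0.310 CPM (SD, n = 7), a smaller difference.

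When the 15 long models were ordered by mean RPKM, 8 of the 14 neighbouring pairs had ranges over rats that did not overlap. Of the 6 pairs whose ranges overlapped, 3 kept their order in every rat: ENSRNOG00000030700 above ENSRNOG00000030371, ENSRNOG00000033299 above ENSRNOG00000029707, and ENSRNOG00000029707 above ENSRNOG00000031033. In the other 3 the order was held by 6 rats for ENSRNOG00000043866 above ENSRNOG00000034234, by 5 rats for ENSRNOG00000030478 above ENSRNOG00000031979 and by 4 rats for ENSRNOG00000031033 above ENSRNOG00000029971. Those last pairs differed by 1.16, 1.02 and 1.02 times in mean RPKM, and on that scale their order was not the same in all rats.

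A single protein-length model lay on the minus strand, ENSRNOG00000029042 (13543 to 14061, 519 bases). It had 18.2 CPM in rat 4, a median of 21.1 and 24.3 CPM in rat 7, and at 41.1 ± 5.04 RPKM it was the lowest of all long models (SD, n = 7). The mean over the 12 plus-strand protein-length models was 939 ± 81.3 RPKM (SD, n = 7). The log2 ratio of minus to plus was -4.52 ± 0.08 (SD, n = 7), a level 0.0437 times as high, and lower in 7 of 7 rats. The two-sided exact sign-flip permutation test gave p = 0.0156 and an adjusted value of 0.0156 over the 3 ratios. The libraries were selected for polyA, and whether transcripts of both strands were captured equally was not tested. The size depends on how the plus strand is summarised: against the median of the plus-strand models the log2 ratio was -3.01. The next lowest model, ENSRNOG00000031053 on the plus strand, had 68.8 ± 10.7 RPKM, and its lowest rat (59.2) lay above the highest rat of ENSRNOG00000029042 (46.8).

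Taken per base, the rRNA-length models stood above the protein-length models. Their summed counts gave 3525 ± 527 RPKM, against 1032 ± 87.4 RPKM (SD, n = 7). The log2 ratio was 1.76 ± 0.14 (SD, n = 7), a 3.39-fold difference in 7 of 7 rats, from 1.54 in rat 4 to 1.91 in rat 7. The two-sided exact sign-flip permutation test gave p = 0.0156 and an adjusted value of 0.0156. On summed counts the class difference rests on ENSRNOG00000043866, since the other rRNA-length model, at 1136 ± 243 RPKM, was close to the 1032 RPKM of the protein-length class. That class value depends on its highest model, ENSRNOG00000034234, at 4311 ± 324 RPKM (SD, n = 7). As a mean over the 13 models the class had 870 ± 75.4 RPKM (SD, n = 7). Among the 15 long models the shorter rRNA-length model ranked 5 by mean RPKM. How fully rRNA was captured by the polyA selection was not measured.

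The mitochondrial models are packed closely, and the counting rule bears on what they could collect. A read that touches more than 1 model of its strand was not assigned, because the file headers show no setting that allows it. For each model the read starts were therefore counted from which a full read of 100 nucleotides touches that model and no other on its strand, called assignable positions here. They numbered 1472 for ENSRNOG00000043866 and 1614 for ENSRNOG00000034234, near their lengths, but 63 for the 204 bases of ENSRNOG00000033299. Of the 9 overlaps between members, 6 were on the same strand and 3 on opposite strands.

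Most tRNA-length models had little or no room for a read of their own. All 14 on the plus strand and 8 on the minus strand are shorter than a read. The 9 models with no assignable position, all on the plus strand, had 0 counts in every rat, as the counting rule requires for full reads. Of the 13 models with at least 1 assignable position, 11 had counts, 624 over all rats, and the 2 without counts, ENSRNOG00000031333 and ENSRNOG00000032609, had 4 and 7 positions. A count of 0 over the group allows up to 0.00622 CPM, but for the 9 models it says nothing about their transcripts, since no full read could be credited to them.

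The 3 highest tRNA-length models were ENSRNOG00000029145, ENSRNOG00000032882 and ENSRNOG00000030339. ENSRNOG00000029145 (15348 to 15415, minus strand, 68 bases), the last model along the sequence, had 47, 21, 29, 23, 23, 45 and 36 counts in rats 1 to 7. ENSRNOG00000032882 (6865 to 6933, minus strand, 69 bases), which overlaps ENSRNOG00000034234 by 3 bases on the opposite strand, had 10, 14, 24, 10, 14, 11 and 14 counts. ENSRNOG00000030339 (15280 to 15346, plus strand, 67 bases) had 12, 13, 7, 18, 10, 21 and 11 counts. These models have 167, 168 and 68 assignable positions. The fourth detected one, ENSRNOG00000029677 (4943 to 5008, plus strand), had 10 counts in each of 4 rats and fewer in the others, exactly at the limit of detection.

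Among the tRNA-length models with any count, the lowest 3 were ENSRNOG00000032997, ENSRNOG00000033932 and ENSRNOG00000029301, with means of 0.429, 1.43 and 1.57 counts per rat. Among models with positions, counts followed their number only in part. The highest, ENSRNOG00000029145 and ENSRNOG00000032882, had 167 and 168 positions, and those without counts had 4 and 7, but other models departed from this order. ENSRNOG00000033545 (3761 to 3831, minus strand) had 170 assignable positions, the most of any tRNA-length model, and 1 to 5 counts, whereas ENSRNOG00000032274 (3835 to 3903, plus strand) had 41 positions and 4 to 12 counts. Polyadenylated precursors that still hold a tRNA can also be read on these models, so that the counts do not measure mature tRNAs. The coefficient of variation over rats of the 4 detected ones was 27.2% for ENSRNOG00000029677, where counting error alone would give 34.2%, and 29.6% for ENSRNOG00000032882, where it would give 26.9%. It was 39.2% for ENSRNOG00000030339 and 38.7% for ENSRNOG00000029145, where counting error would give 27.6% and 17.7%.

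**Figure D3:**
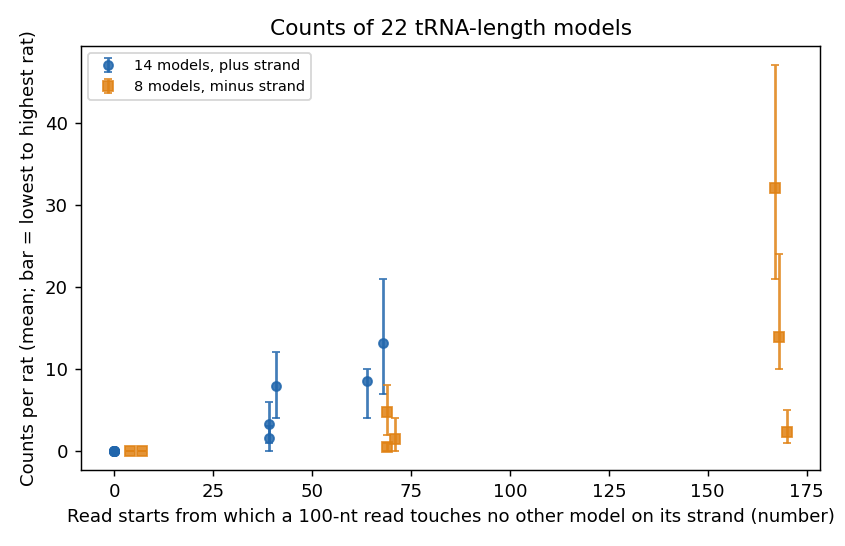
Mean counts per rat of the 22 tRNA-length models (bars from the lowest to the highest rat) against the number of read starts from which a 100-nucleotide read touches the model and no other on its strand. The 9 models at 0 positions all lie at 0 counts, drawn on top of each other, and the highest mean, 32.0 counts, belongs to a model with 167 positions.

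The same layout changes levels of short long models. ENSRNOG00000033299 and ENSRNOG00000031979 overlap by 43 bases on the plus strand. Per base the former stood at 0.136 ± 0.00766 of the latter, and per assignable position at 0.349 ± 0.0196 (SD, n = 7). ENSRNOG00000031053 and ENSRNOG00000029707 overlap by 7 bases, and the former stood at 0.545 ± 0.0349 of the latter per base and at 0.774 ± 0.0496 per assignable position (SD, n = 7). On both scales the shorter model of each pair was lower in every rat. Per assignable position ENSRNOG00000033299 also moved above ENSRNOG00000030644 in 7 of 7 rats, whereas its RPKM was lower in 7 of 7. Likewise ENSRNOG00000031979 stood above ENSRNOG00000030478 per assignable position in 7 of 7 rats, and ENSRNOG00000031033 stood above ENSRNOG00000029971 by 1.13 times in 7 of 7. These values assume full-length reads and were added after the data were seen.

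Multimapped reads entered the files as fractions at each of their places. Of the 15 long models, 10 had whole counts in every rat, near the 69.2% of all detected models. All 22 tRNA-length models had whole counts, but 11 of them had 0 in every rat. The 5 with a fractional count in at least 1 rat were both rRNA-length models, ENSRNOG00000030644, ENSRNOG00000031033 and ENSRNOG00000034234, the first long models along the sequence. Fractions can add up to whole numbers, so that this count is a lower limit on the members that share reads. How many reads were shared was not measured.

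The long models moved together between rats. In rats 6 and 7 all 15 were above their own mean over the 7 rats on the log2 CPM scale, by a median of 0.18 and 0.22, and in rats 2, 4 and 5 all 15 were below it, by a median of -0.10, -0.22 and -0.16. Rat 1 had 13 of 15 above and rat 3 had 13 of 15 below. With TMM scaling, which moved rat 7 as a whole by -0.13 on the log2 scale and rat 1 by 0.08 and every other rat by less, 14 of 15 were above in rat 7 and 2 of 15 were above in rat 4. DESeq2 size factors, which moved rat 7 by -0.14, gave the same counts in both, and with either scaling all 15 were above in rat 1 and 14 of 15 below in rat 3. In rats 2, 5 and 6 the directions were the same under each scaling.

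**Figure D4:**
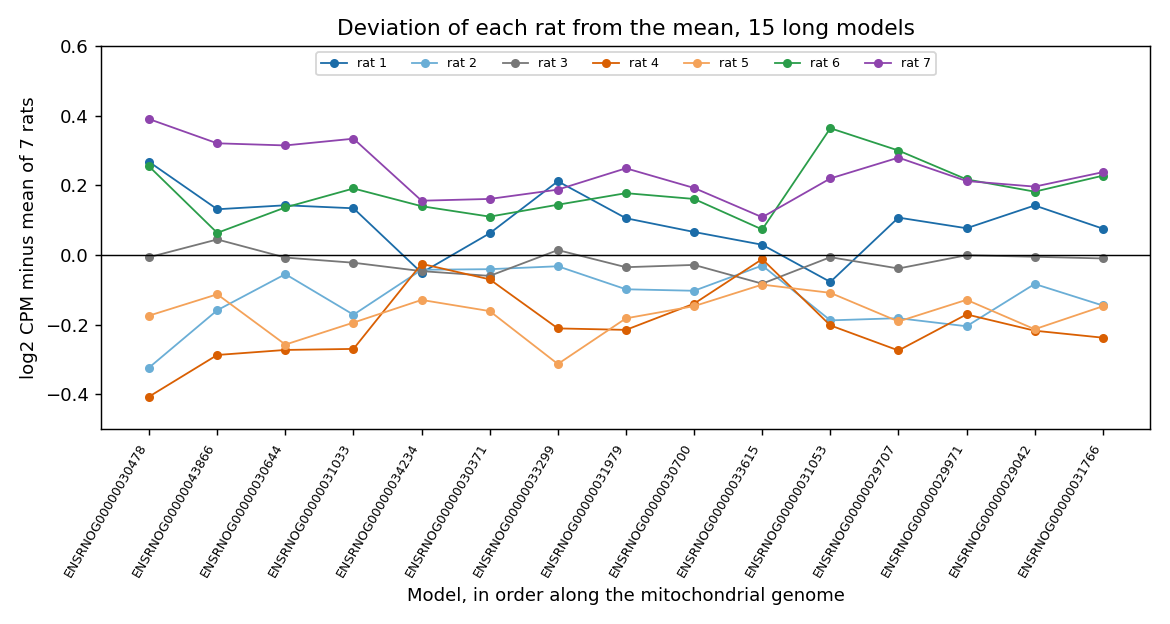
Difference of log2 CPM from the mean of the 7 rats for each of the 15 long models, in order along the mitochondrial genome, with 1 line per rat. The lines of rats 6 and 7 stay above 0 and those of rats 2, 4 and 5 below it, and the widest spread, from -0.41 to 0.39, is at the shorter rRNA-length model ENSRNOG00000030478.

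The coefficient of variation (CV) of CPM over the 7 rats had a median of 13.2% over the 15 long models, from 5.17% for ENSRNOG00000033615 to 21.4% for ENSRNOG00000030478. The median over all 19 detected members was 14.2%, against 9.97% over all 16670 detected models and 7.12% over the 6110 that were at least as abundant as the lowest long member. With no filter on low counts the medians were closer, 16.1% over the members with a count and 15.5% over all models with one. Counting error alone would give at most 2.67% in any of the 15. As a share of the mitochondrial counts, the median CV of the long models was 5.24%, less than in CPM. ENSRNOG00000033615 was an exception: its CV was 5.17% in CPM and 7.13% as a share. After ENSRNOG00000033615, the lowest CVs in CPM among the 15 were those of ENSRNOG00000034234 (7.51%) and ENSRNOG00000030371 (7.93%). ENSRNOG00000030478 remained the most variable as a share, at 11.8%.

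**Figure D5:**
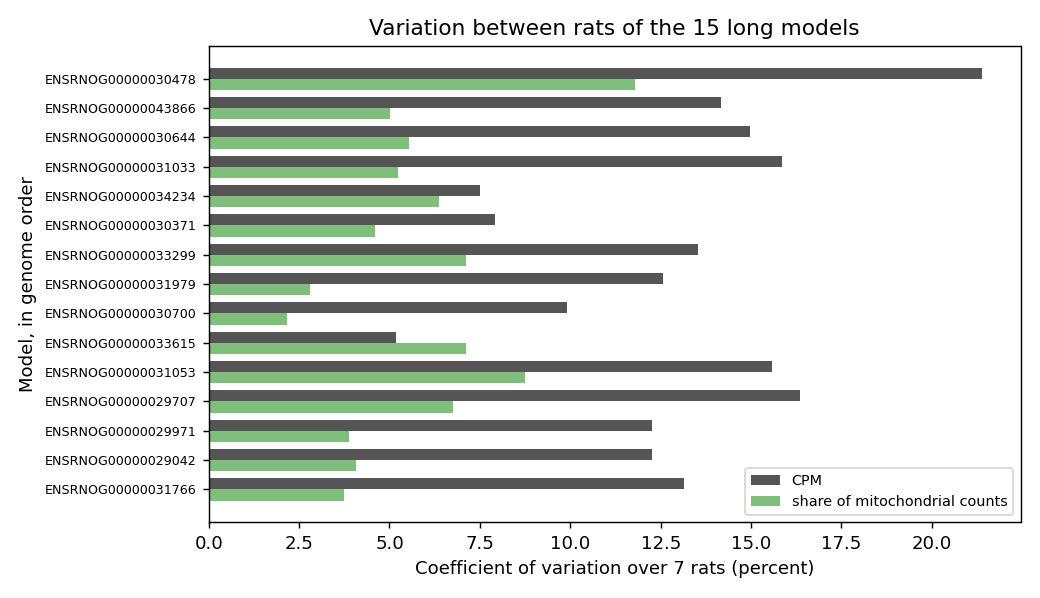
Coefficient of variation over the 7 rats of CPM (grey) and of the share of mitochondrial counts (green) for the 15 long models in genome order. Grey bars exceed green ones for every model except ENSRNOG00000033615, and the longest grey bar, 21.4%, is that of the shorter rRNA-length model.

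Relations across rats were computed for 5 pairs of measures, over the 7 rats, with two-sided exact permutation tests adjusted over the 5. Values of a rat share a library and its total. The minus-strand protein-length model followed the summed plus-strand ones, with r = 0.904 (exact permutation p = 0.00337, adjusted 0.0169) and rho = 0.964 (p = 0.00278, adjusted 0.0139). Without rats 6 and 7, the farthest from the median, r was 0.908 (exact permutation p = 0.0417, not adjusted). Summed tRNA-length CPM, 1.02 to 1.63 per rat, also followed protein-length CPM, with r = 0.862 (exact permutation p = 0.0105, adjusted 0.0263) and rho = 0.857 (p = 0.0238, adjusted 0.0397). Without the same rats r was 0.895 (exact permutation p = 0.05, not adjusted). That sum rests on few counts and few models: of a mean of 89.1 counts per rat, ENSRNOG00000029145 alone had 32.0, and 11 models had none.

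Summed rRNA-length CPM, 7164 to 11088 per rat, followed protein-length CPM, 10632 to 13278, with r = 0.811 (exact permutation p = 0.0248, adjusted 0.0413) and rho = 0.857 (p = 0.0238, adjusted 0.0397). Without rats 6 and 7, r was 0.682 (exact permutation p = 0.20), so that the call was lost with both left out, in a set of 5 rats that has few permutations. Without rat 6 alone r was 0.878 (exact permutation, adjusted p = 0.0347), and without rat 7 alone it was 0.643. The adjusted p was 0.125 with TMM scaling and 0.13 with DESeq2 size factors. Left out alone, rat 2, 3, 4, 5 or 7 also ended this call, with adjusted p from 0.0741 to 0.252. For the tRNA-length relation leaving out rat 2, 3, 4 or 5 ended the call (adjusted p 0.0741 to 0.0995), and for the minus-strand relation rat 2, 3 or 5 did (0.0741 to 0.0995).

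The mitochondrial share was also set against the rest of the library. Its relation to the share of the 10 most abundant other models, 39.8% to 47.4% of counts, did not pass the test (r = -0.601, exact permutation p = 0.144, adjusted 0.18; rho = -0.321, p = 0.498, adjusted 0.498). Without rats 3 and 7, r was 0.439, and without rat 7 alone, in which those models took their lowest share, r was 0.211. With TMM scaling in place of total counts r was -0.0518, and with DESeq2 size factors -0.0146. The mitochondrial share was also compared with library size. Its relation to total counts had r = -0.573 (exact permutation p = 0.184, adjusted 0.184) and rho = -0.571 (p = 0.20, adjusted 0.25), and without rats 2 and 3, r was -0.731. The labels and file headers name no batch by which the rats could be split.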

How the data were processed

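The submitters' processing notes name STAR 2.7.1a and featureCounts 1.6.5, and the headers of the files give version 1.6.3 of the latter. Each deposited file holds expected counts for gene models of Ensembl release 67 (RGSC3.4) with additions by the authors, per the file headers. Counting was on exons and stranded (setting 2), took reads that overlapped by 1 base or more at any mapping quality (minimum 0), and split multimapped reads into fractions. Neither depth nor length was corrected for.

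CPM divided those counts by the library total, and RPKM divided CPM by the length of the model. Counts were rounded for edgeR 4.0.16 (TMM) and DESeq2 1.42.0 (size factors) in R 4.3.3 only. Python 3.11.15, numpy 2.4.6, scipy 1.17.1, pandas 2.3.3 and matplotlib 3.10.9 did the rest. Tests were two-sided and exact over rats, at a threshold of 0.05. The code for the CV, the sign-flip test and the correlations was tested on simulated data, and the other steps were not. In a chi-square test over the long members, each of 21 library pairs exceeded its degrees of freedom 33.6 to 1046 times, and none was counted as a repeat.

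All members are accounted for: long models with values, tRNA-length models by counts, with the 3 highest and the 3 lowest with any count named (11 had none). Members and classes were chosen with earlier results of these data known. The gene table (47357 genes of GRCr8) matched 0 identifiers and held 0 mitochondrial genes, so that lists of nuclear respiratory genes and cell type markers were not used and no sequence is shown.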

Additional observations from a re-analysis of the deposited data

Results flagged for a closer look

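Dixon's test, with its 95% critical value, was run on 46 values over the 7 rats, and in 4 of them a single rat stood apart. About 1 in 20 would do so by chance, and several of the 46 share a model. ENSRNOG00000032882, a minus-strand tRNA-length model, had 0.321 CPM in rat 3 and 0.148 to 0.216 CPM in the others, and as a share of mitochondrial counts 0.00157% against 0.000723% to 0.00106%; rat 3 had 24 counts of it. ENSRNOG00000031053 held 0.116% of the mitochondrial counts in rat 6, above the 0.0888% to 0.09998% of the remaining 6. ENSRNOG00000031766 held 2.38% of the mitochondrial counts in rat 6, above the 2.11% to 2.22% elsewhere.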

How the results depend on the processing

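Of 148 alternative values for 15 results, 121 kept their direction and side of the threshold or moved by less than the spread between rats, 12 moved by more, 14 lost the call and 1 reversed. The mitochondrial share of 2.07% was 3.77% without the 10 most abundant other models in the total and 1.605% over models with whole counts only, and 2.01% to 2.11% with each rat left out. The rRNA-length share of mitochondrial counts, 42.9%, was 34.9% on counts per base and 33.9% per assignable position. Both shares add up 1 value per model, so that 2 rRNA-length models are set against 13 protein-length ones. They are not the summed counts per summed base given earlier, where the rRNA-length class stood higher, at 3525 against 1032 RPKM. The share was 0% with whole counts only. That filter removes 5 members, among them both rRNA-length models and ENSRNOG00000034234. The protein-length share went from 57.1% to 65.0%, 66.1% and 99.97%, and the tRNA-length share from 0.00626% to 0.109% on counts per base and 0.0273% with whole counts only. The 3 log2 ratios kept their direction and call in every alternative run: 2.09 to 2.18 for the rRNA-length models, -4.69 to -3.01 for minus against plus strand and 1.71 to 1.81 for rRNA-length against protein-length. Leaving out a rat could not end these calls, although such runs are among the 121. All rats lay on 1 side of 0, which fixes the sign-flip p at its smallest value, 0.0312 with 6 rats. With each rat left out, r of rRNA-length with protein-length was 0.643 to 0.878, of tRNA-length 0.799 to 0.945, of the minus strand 0.870 to 0.962 and of the share with the 10 most abundant other models -0.747 to 0.211. The last of these reversed without rat 7 (0.211). With TMM scaling it was -0.0518 and with DESeq2 size factors -0.0146. Both are among the 121, since the direction was kept and no run called it. With 6 rats fewer permutations exist, so that a call can end although r is nearly the same. The r of rRNA-length with protein-length lost the call with TMM (0.704) and DESeq2 size factors (0.712). With no filter, where low models enter, the median CV was 16.1% over the members, 15.5% over all models and 7.94% for shares of mitochondrial counts. No paired analysis was possible because there are no 2 groups to pair; the log2 ratios were taken within each rat. Depth limits the tRNA-length models, whose detected members had 8.57 to 32.0 counts per rat.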
